A study of Homo sapiens with 2 samples.

Results

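MALAT1, a long noncoding RNA of the nucleus, carried 85 of the 6754 SRSF1 crosslink sites listed for H1299 cells (1.26%, exact Clopper-Pearson 95% interval 1.01 to 1.55%). The members are all listed sites on the plus strand of chromosome 11 whose midpoint falls between positions 65265200 and 65274000 of the hg19 build, a window of 8801 nt. The window was chosen by the number of listed sites it holds, so that number, and the tag depth that goes with it, are descriptions and are tested against nothing. The interval takes no account of that choice. The list names no genes, and the gene name rests on the position of this window. SRSF1 was crosslinked to RNA and recovered in 2 HITS-CLIP libraries of H1299, a long-established lung cancer cell line of human origin, and the labels name no treatment, no altered gene and no control library. Both libraries were deposited as 1 combined list. No spread between replicates, SD or test between samples could therefore be computed, and the labels do not say whether the replicates came from separate cultures.

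MALAT1 RNA is abundant and stays in the nucleus, where it collects at nuclear speckles, the bodies that store splicing factors. SR proteins such as SRSF1 bind RNA through RNA recognition domains and act in splice site choice, and SRSF1 is a known partner of MALAT1. The RNA has no poly(A) tail of the usual kind: RNase P cuts its precursor near the 3′ end, which frees a small tRNA-like RNA called mascRNA, and a triple helix protects the new end. In HITS-CLIP, ultraviolet light links the protein to RNA in living cells, and the RNA fragments that stay with the protein are sequenced as tags. A peptide left on the RNA can stop the reverse transcriptase, which gives a truncation site, or make it misread a base, which gives a mutation site.

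Purine-rich words built on GA are known as preferred binding sequences of SRSF1, so the RNA itself was searched for them. The longest MALAT1 transcript in GENCODE release 29 (MALAT1-202, ENST00000534336.1, a lincRNA of gene ENSG00000251562.8 on GRCh38) is 8708 nt long. It holds GAAGAA 9 times, with overlapping matches counted, and none begins in the first 1000 bases, 8 begin after base 1000 and by base 3000, and 1 begins later. The densest stretch of at most 200 nt has 4 of them, at bases 1930, 1982, 2022 and 2077. That stretch and the 5 other matches are shown because they are all the copies of this word in the transcript. Each is written 5′ to 3′ as DNA letters with GAAGAA in capitals.

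MALAT1-202 bases 1920 to 2092: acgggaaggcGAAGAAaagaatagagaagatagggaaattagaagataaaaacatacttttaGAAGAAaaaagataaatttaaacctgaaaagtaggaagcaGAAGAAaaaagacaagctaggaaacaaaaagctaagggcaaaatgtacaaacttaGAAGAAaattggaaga
MALAT1-202 bases 1168 to 1193: atttttaaccGAAGAActactttttg
MALAT1-202 bases 2341 to 2366: aaccaatttaGAAGAAtacttgaagc
MALAT1-202 bases 2453 to 2478: ggaagagttaGAAGAAtttggaaggc
MALAT1-202 bases 2796 to 2821: aggaagctagGAAGAAggaaggagcg
MALAT1-202 bases 6007 to 6032: gatttgagcgGAAGAAcgaatgtaac

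GAAGAA occurred 1.03 times per 1000 nt of the transcript, against a median of 0.515 over the longest transcripts of 132 lincRNA genes, MALAT1 included, of at least 5000 nt. Of these, 8.33% had as many per 1000 nt or more. Of 44283 windows of 200 nt cut from the longest transcript of each lincRNA gene, 12.9% held the word. It occurred 4 times or more in 0.0565% of them. These windows were cut end to end, whereas the MALAT1 stretch with 4 copies was the densest over all positions. The share of windows therefore does not measure how rare that stretch is. A second purine-rich word, GGAGA, occurred 16 times between bases 437 and 8699, with 3 matches in the first 1000 bases, 3 more by base 3000 and 10 after that. Its 1.84 per 1000 nt stood near the median of 1.65 of the long lincRNAs. The reverse complement of the first word, TTCTTC, occurred 6 times, and that of GGAGA was not searched. TTCTTC too stood above the median of the long lincRNAs, at 0.689 against 0.473 per 1000 nt. Of these lincRNAs, 31.1% had as many per 1000 nt or more. These bases are counted on a GRCh38 transcript and the crosslink sites below on hg19. The scales were not joined, so no match is placed under a site, and a match is a description of the RNA, not of binding.

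Listed crosslink sites ran along most of the MALAT1 window, but none lay close to either edge. The edges are those of the chosen window, not of the transcript. The list gives no coverage where no site is listed, so missing sites there do not show missing crosslinks. The first site was a truncation site 1336 nt from the 5′ edge of the window (65266526 to 65266546), with 16 truncated tags. The last was a truncation site 473 nt short of the 3′ edge (65273517 to 65273537), with 4 truncated tags, the fewest in MALAT1. Between these outer sites every 1000 nt of the window held some sites. Counted from the 5′ edge in bins of 1000 nt, the second bin held 8 sites, the third 17, the fourth 12, the fifth 9, the sixth 6, the seventh 16 and the eighth 14, and the last, shorter bin held 3. The 3′ side of the window's midpoint held 44 sites (51.8%, 40.7 to 62.7%). When sites were weighted by their tags, each kind scaled to its own sum, that side had 41.8%.

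**Figure D1:**
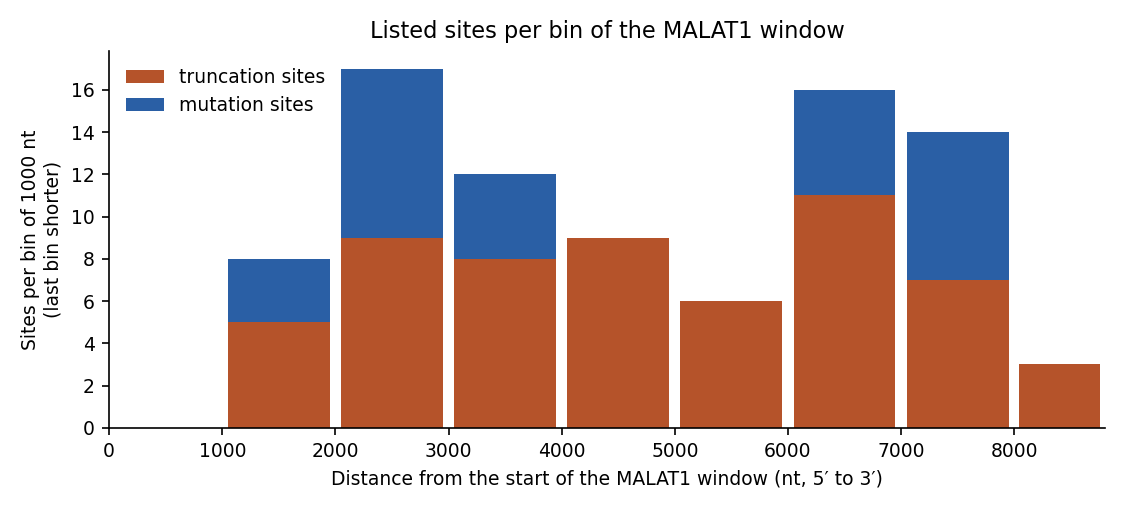
Number of listed sites in each 1000 nt of the MALAT1 window (the last bin is shorter), counted 5′ to 3′, with truncation sites at the bottom of each bar and mutation sites on top. The third bin has 17 sites and the seventh 16, with 9 and 6 in the bins between 4000 and 6000 nt, none of which is a mutation site.

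The median gap from one site to the next was 61.5 nt (quartiles 25.8 and 112), and the widest interior gap was 313 nt, from the mutation site at 65271231 to 65271251 to the truncation site at 65271544 to 65271564. The second gap, 308 nt, ended at the first mutation site (65267113 to 65267133), and the third, 269 nt, began at the truncation site at 65270237 to 65270257. These gaps are short beside the 1336 nt without a listed site at the 5′ edge of the window. On the minus strand of the window no site was listed. In the 100 kb 5′ of the window the plus strand held 17 sites, the nearest of them 53134 nt away, and in the 100 kb 3′ it held 4, the nearest 24152 nt away. The highest coverage of a mutation site in these flanks was 26 tags, against 369 in MALAT1.

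Truncation sites made up 58 of the 85 sites (68.2%, 57.2 to 77.9%), next to 70.1% (69.0 to 71.2%) of the 6669 other sites in the list. Truncated tags per site had a median of 11 in MALAT1, with quartiles of 9 and 15.8 and a range of 4 to 26. Over the 4673 others the median was 6, with quartiles of 5 and 9 and a range of 4 to 42. In MALAT1, 38 of 58 truncation sites (65.5%, 51.9 to 77.5%) had 10 or more truncated tags, where 21.2% of all truncation sites did. The height came with a dense background. The number of tags expected per position of the tag cluster, as the authors deposited it, had a median of 0.785 in MALAT1 and 0.19 elsewhere. The ratio of observed to expected tags was accordingly lower, with a median of 14.1 (quartiles 11.8 and 18.7) against 35.3 (26.3 and 44.4). The most tags at any MALAT1 truncation site, 26, did not reach the 20 highest values of the list, all of which were 28 or more.

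The ratios in MALAT1 and elsewhere were closer in classes of like background. They were lower in MALAT1 in each class below, but not where the upper classes were joined. Where 2 or more tags were expected per position, 3 MALAT1 sites, all of 1 cluster, had a median ratio of 6.15 and 25 other sites 7.72. At 1 to under 2 expected, 15 MALAT1 sites had a median ratio of 12.4 and 92 other sites 12.6. With these classes joined, at 1 or more expected, the median ratio was 12.0 at 18 MALAT1 sites and 11.5 at 117 others. At 0.5 to under 1 expected, 29 MALAT1 sites had a median of 11 tags and a ratio of 14.5, and 372 other sites 13 tags and a ratio of 19.4. Under 0.5 expected, 11 MALAT1 sites had 7 tags and a ratio of 23.1, against 6 tags and 36.8 at 4184 others. This lowest class is wide, and within it the median expected number of both sets was not matched. The smallest tag number in the list outside MALAT1 rose with the background, from 4 tags where under 0.3 were expected to 7 at 0.6 to under 1, 9 at 1 to under 2 and 13 above that. The lowest MALAT1 sites in these classes had 4, 9, 12 and 19 tags. Over the 58 sites, truncated and expected tags had a Spearman correlation of 0.87, in a list whose smallest tag number rises in the same way, and sites of 1 cluster share their expected number.

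**Figure D2:**
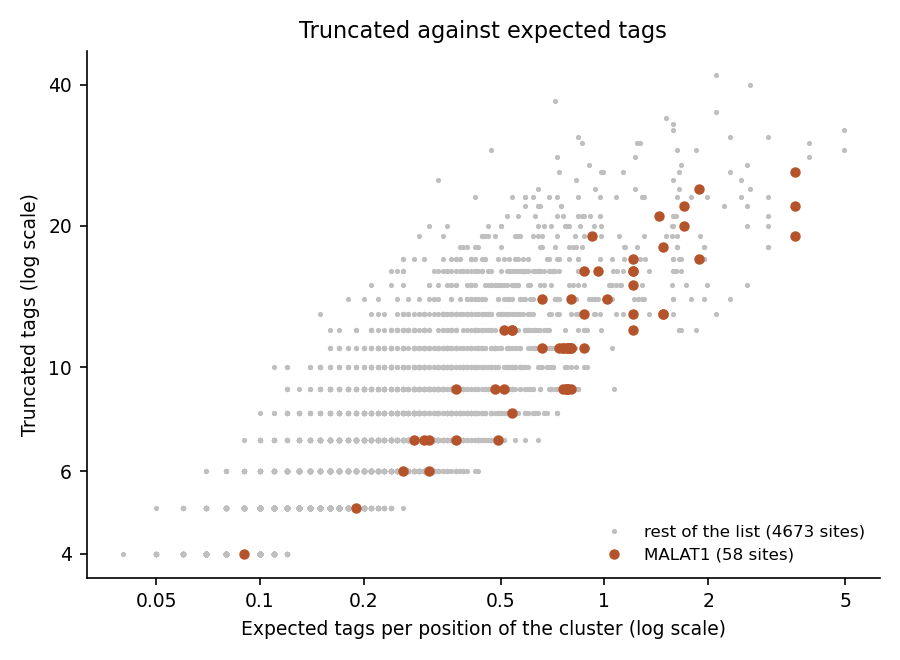
Truncated tags (vertical, log scale) against expected tags per position of the tag cluster (horizontal, log scale) for the 58 truncation sites of MALAT1 and the 4673 others of the list. The MALAT1 sites lie on the right of the cloud, at a median of 0.785 expected tags, and the MALAT1 site with the fewest tags, 4, is the one with the lowest expected number, 0.09.

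The strongest truncation site lay 2906 nt from the 5′ edge (65268096 to 65268116), with 26 tags (exact Poisson 95% interval 17.0 to 38.1) against 3.58 expected, a ratio of 7.26. Another site of the same tag cluster, at 65267868 to 65267888, had 22 tags (13.8 to 33.3) and a ratio of 6.15. The second highest site, at 65271159 to 65271179, had 24 tags (15.4 to 35.7) against 1.88 expected, and its P in the authors' list was the lowest given, 1e-100. It shared this P with a site outside the 5 highest, at 65270506 to 65270526, which had 19 tags and a ratio of 20.7. A site with 22 tags against 1.7 expected had a P of 4.83e-14 in the authors' list, so the size of 1e-100 is not used to rank sites. The other sites among the 5 highest had 22 tags at 65268857 to 65268877 and 21 tags at 65272235 to 65272255. The intervals of all 5 overlap, so counting error alone does not order them.

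By the ratio of observed to expected tags the 5 leaders were other sites, with 4 to 12 tags and at most 0.51 expected per position. The last site of the RNA had 4 tags against 0.09 expected, a ratio of 44.4 with an interval of 12.1 to 114. The next were the site at 65270812 to 65270832 (5 tags, ratio 26.3) and the one at 65270237 to 65270257 (7 tags, ratio 25). The fourth, at 65269505 to 65269525, had 9 tags and a ratio of 24.3, and the fifth, at 65271638 to 65271658, had 12 tags and a ratio of 23.5. No site was among the 5 highest both by tags and by ratio. The authors' P was 1e-05 or less at 38 of 58 MALAT1 truncation sites, where 48.6% of all truncation sites reached that value.

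The truncation sites fell into 29 tag clusters. In MALAT1, 17 of the 29 clusters (58.6%, 38.9 to 76.5%) held more than 1 truncation site, against 241 of 4341 clusters elsewhere (5.55%, 4.89 to 6.27%). The window was chosen for its many sites and its background is denser. Clusters of like background were not compared, so the difference is a description. Of the 29 clusters, 12 held 1 site, 10 held 2, 5 held 3, 1 held 4 and 1 held 7. Between the first and the last of them the cluster numbers run through 45, so 16 numbered clusters of this stretch have no listed truncation site. The tags expected per position ranged from 0.09 at the 3′ end to 3.58, a ratio of 39.8. Of the 8 clusters with 1 or more expected, 5 began in the first 4000 nt of the window.

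The cluster with the densest tags held 3 truncation sites over 271 nt, 2678 to 2949 nt from the 5′ edge. The cluster with the most truncation sites, 6532 to 6779 nt from the edge, was of another kind. It had 0.78 tags expected per position and 7 sites in 247 nt, spaced 27 to 58 nt apart, with 9 to 11 tags each. Elsewhere in the list 3 clusters held 7 or more sites. Gaps between truncation sites of 1 cluster had a median of 61 nt in MALAT1 (29 gaps, 27 to 228 nt) and of 52 nt elsewhere (332 gaps, from 26 nt). In all 17 clusters with several sites the Poisson intervals of the highest and the lowest site overlapped, so the sites of a cluster could not be ranked at this depth.

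**Figure D3:**
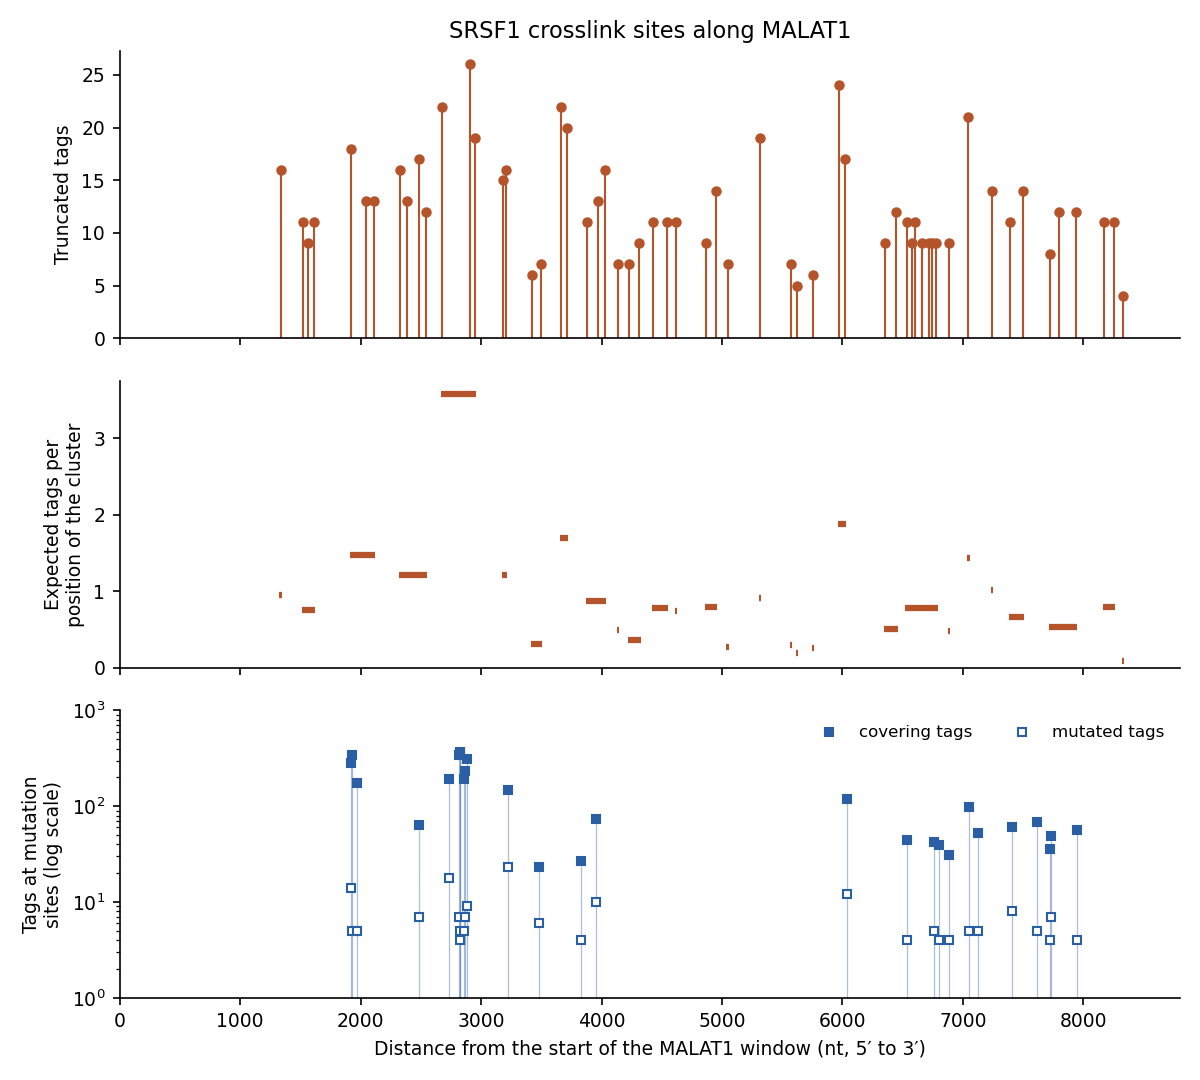
The 85 MALAT1 sites by distance from the 5′ edge of the window. The top panel gives truncated tags at the 58 truncation sites, the middle panel the tags expected per position of their 29 clusters (bars run from the first to the last site of a cluster), and the bottom panel the covering (filled) and mutated (open) tags of the 27 mutation sites on a log scale. Expected tags peak at 3.58 and coverage at 369 tags over the same stretch, the latter at 2823 nt, and no mutation site lies between 3950 and 6041 nt.

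Mutation sites in MALAT1 were deeply covered. All 27 were covered by 20 or more tags, where 12.0% of the mutation sites of the list were. Their coverage had a median of 73 tags (quartiles 46.5 and 213, range 23 to 369), against 5 (3 and 8) over the 1996 others. MALAT1 held 12 of the 51 mutation sites of the list with 100 or more covering tags. Of these 12, 11 lay in a stretch of 1303 nt, from 1923 to 3226 nt off the 5′ edge, which also held 12 truncation sites. The 15 mutation sites farther 3′ were covered by 23 to 118 tags, with a median of 49. Coverage and distance from the 5′ edge had a Spearman correlation of -0.67 over the 27 sites, many of which share tags.

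Between 3950 and 6041 nt, a stretch of 2091 nt, no mutation site was listed, although 17 truncation sites in 12 clusters lay there. These had 5 to 24 truncated tags with a median of 11, the same median as all of MALAT1. Their expected tags per position ran from 0.19 to 1.88. The tags that covered this stretch are not given in the list, since coverage is listed at mutation sites alone. A lower coverage and a lower rate of mutation therefore cannot be told apart there.

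The 5 most covered mutation sites had low mutated shares. At 65268013 to 65268033, 4 of 369 tags were mutated (1.08%, 0.296 to 2.75%), and at 65268015 to 65268035, 5 of 361 (1.39%, 0.451 to 3.20%). At 65268010 to 65268030, 7 of 345 tags were mutated (2.03%, 0.820 to 4.14%). These 3 sites lie within 5 nt and are covered by largely the same tags. At 65267120 to 65267140 the number was 5 of 339 (1.47%, 0.481 to 3.41%), and at 65268069 to 65268089 it was 9 of 314 (2.87%, 1.32 to 5.37%).

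The highest mutated shares, taken where coverage was 20 tags or more, lay 3′ of these 5 sites. The site at 65268668 to 65268688 had 6 of 23 tags mutated (26.1%, 10.2 to 48.4%), and the one at 65268416 to 65268436 had 23 of 146 (15.8%, 10.3 to 22.7%). The latter had the most mutated tags in MALAT1, and its interval lies above those of all 5. The others among the 5 highest had 4 of 27 tags (14.8%), 7 of 49 (14.3%) and 10 of 73 (13.7%). Coverage and share are tied by the list itself. No MALAT1 mutation site had under 4 mutated tags and 7 had exactly 4, so a share of 1% could be listed only at deep sites.

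Mutated shares in MALAT1 lay close to those at sites of like coverage elsewhere. At 20 to 49 covering tags its 8 sites had a median of 12.4% and the 147 others 14.3%. At 50 to under 100 tags 7 sites had 9.62% and 30 others 10.2%. At 100 or more, 12 sites had 2.88% (quartiles 1.89 and 6.03) and 39 others 4.03% (2.66 and 6.02). The MALAT1 median was the lower one in each class, while the quartiles of both sets overlap. Coverage within the classes, the open top class among them, was not matched. The tags mutated at MALAT1 sites numbered 196 of 3828 covering tags (5.12%), with tags counted again at each site they cover.

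**Figure D4:**
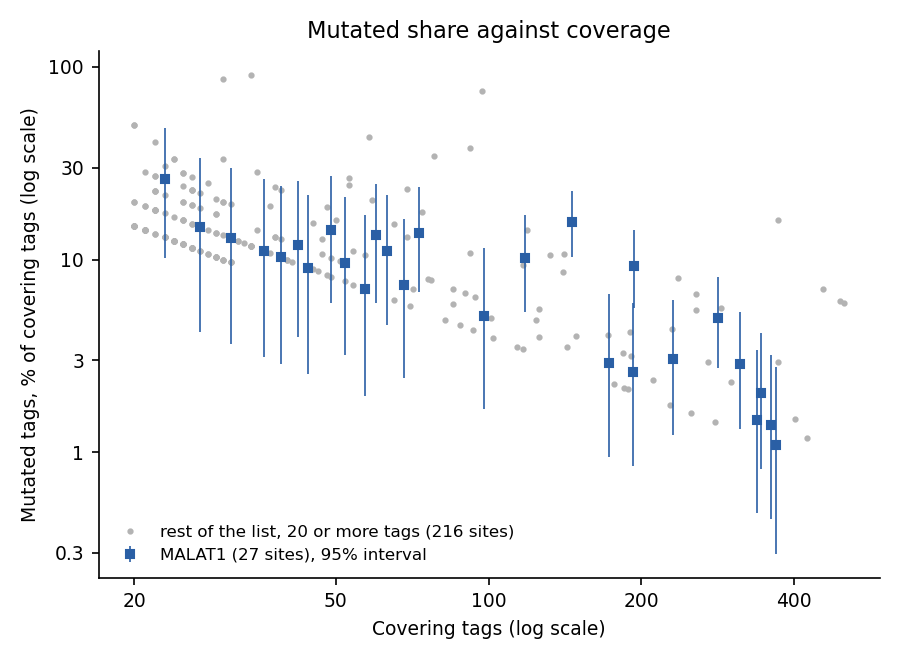
Mutated tags as a percentage of covering tags (vertical, log scale) against covering tags (horizontal, log scale) for the 27 MALAT1 mutation sites, with exact 95% intervals, and the 216 other mutation sites of the list with 20 or more covering tags. The lower edge of both sets falls as coverage rises, and the MALAT1 site with 23 of 146 tags mutated stands at 15.8%.

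Most mutation sites of MALAT1 had a truncation site near them, in a window chosen for its many sites. Of the 27 mutation sites, 20 (74.1%, 53.7 to 88.9%) had a truncation site within 50 nt, where 16.4% of all mutation sites had, and the median distance was 17 nt. Seen from the other kind, a mutation site lay within 50 nt of 18 of the 58 truncation sites (31.0%, 19.5 to 44.5%), where 6.79% of all truncation sites had one. Depth and the number of sites per length differ between these sets, and their part in these shares was not tested. Neighbouring truncation sites of MALAT1 had a median gap of 95 nt, which is short beside a limit of 50 nt on either side. At like coverage MALAT1 did not stand higher throughout. At 50 or more covering tags its share was the lower one. There, 13 of 19 MALAT1 mutation sites (68.4%, 43.4 to 87.4%) and 64 of 69 others (92.8%, 83.9 to 97.6%) had a truncation site within 50 nt. At 20 to 49 tags the MALAT1 share was the higher one, with 7 of 8 (87.5%) against 110 of 147 (74.8%). The intervals take sites as independent, although many share tags. The MALAT1 sites at 2820, 2823 and 2825 nt, none with a truncation site within 50 nt, are covered by largely the same tags.

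Of the 20 near mutation sites, 13 lay 3′ of the truncation site, 6 lay 5′ and 1 shared its interval. The whole list leaned the same way at the 50 nt limit: of 332 near mutation sites, 224 lay 3′, 90 lay 5′ and 18 shared the midpoint. Within 10 nt it did not: 34 sites of the list lay 3′ and 45 lay 5′, against 5 and 1 in MALAT1. The shared interval was 65267113 to 65267133, the first mutation site of the RNA, with 14 of 283 tags mutated (4.95%, 2.73 to 8.16%) and 18 truncated tags against 1.48 expected. The 6 sites on the 5′ side included 3 of the deep group between 2820 and 2879 nt, all 5′ of the strongest truncation site. The 7 mutation sites farther than 50 nt away were 55 to 110 nt from a truncation site and were covered by 27 to 369 tags, and 5 of them lay 5′. The 3 most covered mutation sites of MALAT1 were among them, 81 to 86 nt 5′ of the strongest truncation site.

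**Figure D5:**
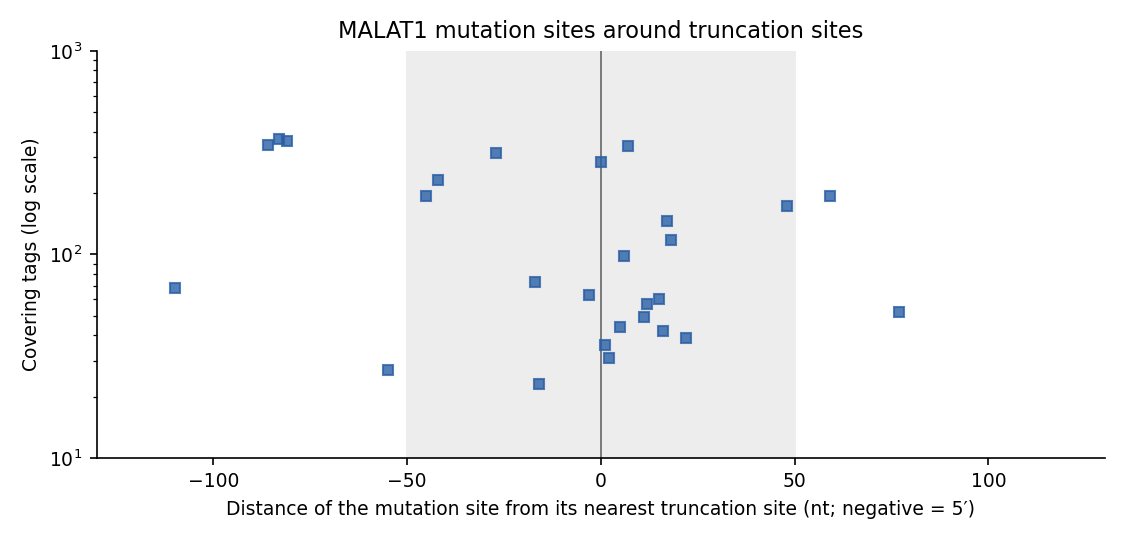
Each MALAT1 mutation site by its signed distance from the nearest truncation site (horizontal, nt, negative values are 5′) and its covering tags (vertical, log scale), with the 50 nt limit shaded. The 20 sites in the shaded band include 12 that lie within 25 nt on the 3′ side, and the 3 sites with the most covering tags stand outside it, 81 to 86 nt on the 5′ side. In the whole list, 145 of the 228 mutation sites within 25 nt lay on the 3′ side.

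Among the loci of the list with the most sites, joined over gaps of at most 1000 nt on a strand, MALAT1 was the longest. Its share of truncation sites, 68.2%, was near the 70.1% of the rest of the list and lay between those of the other 4 loci, which ran from 50% to 96.3%. Its sites spanned 7012 nt at 12.1 sites per 1000 nt. Chromosome 15 minus strand (65243807 to 65247430) had 36 sites at 9.93 per 1000 nt, 94.4% of them truncation sites, with a median of 9 truncated tags and a median ratio of 34.0. Chromosome 16 plus strand (33962596 to 33965862) had 27 sites at 8.26 per 1000 nt, 88.9% of them truncation sites. Chromosome 8 minus strand (144993305 to 145000098) was nearly as long as MALAT1, 6794 nt, with 27 sites at 3.97 per 1000 nt and 1 mutation site. Chromosome 21 plus strand (9825582 to 9827554) had the same density as MALAT1, 12.2 per 1000 nt, in 1973 nt, with 12 sites of each kind. Its mutation sites had a median coverage of 73.5 tags, next to 73 in MALAT1, but 1 tag cluster held all its truncation sites, where MALAT1 had 29. These loci were picked for their number of sites, so the differences are descriptions with no test.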

How the data were processed

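Crosslink sites of SRSF1 were taken from the authors' combined list of 2 HITS-CLIP libraries of H1299 cells (1 group). The tools were, per the submitters' processing notes, cutadapt and BWA 0.7, on build hg19. How duplicates and reads with several places were treated, and how the replicates were joined, is not given in the sources used here. Each site's deposited tag count equals its truncated (PH) or mutated (m) tags. The other deposited fields, given in the row names (expected tags PH0, P and covering tags k), were used as the authors wrote them, with abbreviations read after the CTK toolkit's naming. The total tags per library are unknown.

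Positions are interval midpoints, 1-based, counted from the 5′ edge of the window. Of the 85 members, 85 are intervals of 21 nt. Shares carry exact Clopper-Pearson and tag numbers exact Poisson 95% intervals, which cover counting error only. Python 3.11.15, numpy 2.4.6, pandas 2.3.3, scipy 1.17.1 and matplotlib 3.10.9 were used. The code for distances and Clopper-Pearson intervals was checked on simulated data, and that for Poisson and median intervals was not. Named sites are the 5 highest by truncated tags, by ratio, by coverage and by mutated share (20 or more covering tags), the first and last of each kind, those bounding the 3 longest gaps, shared intervals and the 4 other loci with the most sites. Members, rules and alternatives were chosen with earlier results of these data known, and the sequence words, the class limits, the stretch of deep mutation sites and the stretch free of mutation sites after the values were seen. No hg19 genome or annotation was used, so sites are not placed on exons or sequence.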

Additional observations from a re-analysis of the deposited data

How the results depend on the processing

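Of 20 alternatives over 7 results, 14 stayed within 1.5 times a count or within the 95% interval of a share or median, 4 did not, and 2 changed the length of the longest stretch without a site, which was held to no such limit. The number of MALAT1 sites, 85, was 50 among the highest 10% by tag count of their kind and 52 after sites within 50 nt were merged. The median ratio of observed to expected tags, 14.1, was 16.7 with 1 site per tag cluster, the one with the most tags. The mutation sites near a truncation site, 20 within 50 nt, were 7 within 10 nt. The longest stretch without a site, 313 nt, was 331 nt for truncation sites alone and 397 nt for sites above the median tag count of their kind, both of which use fewer sites. No paired analysis was possible because all sites stand in 1 combined list of 1 group, and for the same reason no replicate could be left out. Depth limits the mutated shares: at 23 covering tags the interval of a share of 26.1% runs from 10.2 to 48.4%.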
